A study of Mus musculus with 5 samples.

Results

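The CC chemokine ligands described here are the 10 genes Ccl2, Ccl3, Ccl4, Ccl5, Ccl6, Ccl7, Ccl8, Ccl9, Ccl12 and Ccl22. They were taken by gene symbol from a table of 41388 genes, and all 10 were found. The list was drawn up with earlier results of these data known, so it is not blind to them. The table holds RNA-seq read counts of microglia sorted as eYFP-positive cells (eYFP is a yellow fluorescent reporter) from brains of C57Bl/6 mice aged 4 weeks. The A20 deletion group has 3 libraries, with the genotype eYFP-A20Dmg and the condition A20-deletion. The control group has 2 libraries, with the genotype eYFP-A20fl/wt Cx3cr1-CreERT2/+ and described as partially deficient. A20 is the protein of Tnfaip3; it edits ubiquitin chains and thereby dampens signalling to NF-kB. All mice received 2 mg of tamoxifen on postnatal days 14 and 16, and the controls carry a floxed A20 allele and a tamoxifen-inducible Cre in the Cx3cr1 locus, a gene that microglia share with monocytes and other macrophages. The labels do not say how many animals gave each library. The controls differed from each other in Xist and Y-linked counts, as did A20 deletion replicate 1 from replicates 2 and 3, so these were not the same animal, but whether replicates 2 and 3 of the A20 deletion group were separate animals is not stated, and the spread between them may be technical.

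CC chemokines are small secreted proteins with adjacent cysteines near the N-terminus that attract leukocytes through G protein-coupled receptors of the CCR family. In the mouse, Ccl2, Ccl7 and Ccl12 act on Ccr2 and recruit monocytes, whereas Ccl3 and Ccl5 act on Ccr1, among other receptors. Many of these genes are known NF-kB targets in macrophages, and microglia are a known source of Ccl3 and Ccl4 in the brain.

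In the mouse genome 9 of the 10 genes lie on chromosome 11 in a pair of clusters. The MCP cluster, named for the monocyte chemoattractant proteins, holds Ccl2, Ccl7, Ccl12 and Ccl8 within 81.2 kb (GRCm38, 82035571 to 82116799). The MIP/RANTES cluster, named for the macrophage inflammatory proteins and for Ccl5, begins 1409 kb further on and holds Ccl5, Ccl9, Ccl6, Ccl3 and Ccl4 within 138.9 kb (83525778 to 83664683). Ccl22 lies on chromosome 8 (94745590 to 94751699).

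Promoter windows from RefSeq (GRCm38.p6) were at hand for 6 of the 10 genes, Ccl3, Ccl6, Ccl8, Ccl9, Ccl12 and Ccl22; Ccl2, Ccl4, Ccl5 and Ccl7 are named only. Shown are 4 windows of 250 bases before the RefSeq start site, from the coding strand. Ccl12 and Ccl8 are next to each other in the MCP cluster and stood higher in every A20 deletion library. Ccl3 had, with Ccl4, the highest group means per length, and Ccl9 is the member whose groups overlapped. Capitals mark matches, on either strand, to the NF-kB consensus, to the interferon-stimulated response element (a pair of GAAA with any 2 bases between), to TGANTCA (AP-1), to TTCNNNGAA (the STAT element) or to TATAAA (the TATA box).
Ccl12, chr11:82101595-82101844, plus strand: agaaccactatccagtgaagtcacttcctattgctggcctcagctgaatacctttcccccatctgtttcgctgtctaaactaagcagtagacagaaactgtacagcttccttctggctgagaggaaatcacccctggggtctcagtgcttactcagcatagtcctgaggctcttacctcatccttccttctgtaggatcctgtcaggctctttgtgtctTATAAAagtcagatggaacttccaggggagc
Ccl8, chr11:82114935-82115184, plus strand: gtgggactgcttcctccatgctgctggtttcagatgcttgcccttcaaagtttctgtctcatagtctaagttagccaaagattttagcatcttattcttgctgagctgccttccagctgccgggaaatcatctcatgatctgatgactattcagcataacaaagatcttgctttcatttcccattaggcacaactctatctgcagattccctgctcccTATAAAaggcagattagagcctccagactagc
Ccl3, chr11:83649379-83649628, minus strand: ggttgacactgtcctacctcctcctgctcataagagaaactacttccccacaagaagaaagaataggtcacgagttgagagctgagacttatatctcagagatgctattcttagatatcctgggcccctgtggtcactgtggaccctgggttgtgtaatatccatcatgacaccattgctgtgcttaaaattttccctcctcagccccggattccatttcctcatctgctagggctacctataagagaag
Ccl9, chr11:83578637-83578886, minus strand: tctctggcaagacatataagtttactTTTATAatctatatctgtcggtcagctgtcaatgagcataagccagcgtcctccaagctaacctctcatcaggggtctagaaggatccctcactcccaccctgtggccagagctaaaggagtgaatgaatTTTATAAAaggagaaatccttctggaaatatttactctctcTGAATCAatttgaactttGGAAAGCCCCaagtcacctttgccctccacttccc

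TATAAA began 31 bases before the start of Ccl12 and 32 bases before that of Ccl8, and was found in 12.4% of 32851 such windows of 27025 genes. The Ccl12 and Ccl8 windows were the most alike of the 15 pairs, with 54.5% identity in a global alignment, against 42.6% to 49.6% for the other 14 pairs. The Ccl9 window held TGANTCA at position -53 (6.75% of all windows), an NF-kB consensus match from position -35 to -26 on the opposite strand (7.25% of all windows) and 3 matches to TATAAA, of which 2 overlap. No window of the 6 genes held the interferon element (2.98% of all windows) or TTCNNNGAA (7.02%), and the Ccl3, Ccl6 and Ccl22 windows held none of the 5 motifs. These are matches of letters in short windows and were not tested for use.

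Total counts were 9726334 to 12883827 in the A20 deletion libraries and 13946211 and 15275199 in the controls, so a count of 3 corresponded to 0.192 to 0.305 CPM, the usual unit of counts scaled to a common library total. The share of counts from mitochondrial genes was 4.63% and 3.56% in A20 deletion replicates 2 and 3, and 0.847% to 1.19% in the other 3 libraries. Genes longer than the median held 37.8% and 38.5% of the tested counts in A20 deletion replicates 2 and 3, against 44.9% to 47.9% in the other 3; the exons of the 10 members cover 511 to 3045 bases. Xist was counted in A20 deletion replicate 1 and control replicate 1, which had at most 1 Y-linked count, whereas the other 3 libraries had 1230 to 2155. Tnfaip3 itself stood at 294.3, 276.5 and 346.9 CPM in A20 deletion replicates 1 to 3, against 453.7 and 94.67 CPM in the controls (edgeR adjusted p = 0.881), and since the labels do not say which exons were removed, its counts do not check the deletion. Microglia markers dominated every library, with 38000 to 42720 CPM summed over 10 genes in the A20 deletion libraries and 53130 and 58550 CPM in the controls. Of the 10, 9 were lower in every A20 deletion library than in both controls, as were 18.5% of all tested genes. Only 1, Fcrls, passed, in the lower direction, where 0.507% of all tested genes did. The counts were tested with edgeR's quasi-likelihood test over 12240 genes, with Benjamini-Hochberg adjustment and a threshold of 0.05.

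Ccl2, Ccl5, Ccl7 and Ccl12 rose in the A20 deletion libraries, from 4-fold for Ccl2 to 63.4-fold for Ccl5. No member fell, although Ccl6 was lower in every A20 deletion library. Of the 10 members 4 passed the threshold in the higher direction, where 2.08% of all tested genes did, and 0 passed in the lower direction, where 0.507% did. At an unadjusted p under 0.05, 8 members were higher (12.8% of all tested genes) and 1 lower (8.26% of all tested genes). In 8 members all A20 deletion libraries lay above both controls, which was so for 21.7% of all tested genes, and in 1 member, Ccl6, all lay below both controls (18.5% of all tested genes). The median log2 fold change of the members was 2.47, against 0.05 over all tested genes. All 10 passed the filter on low counts, but Ccl7, Ccl8 and Ccl22 did so with fewer than 2 control libraries over its level (0.776 CPM), that is, through the A20 deletion libraries. In bulk RNA a change in the number of cells that make a transcript cannot be told apart from a change per cell.

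The number of members that passed rested on single libraries. With control replicate 1 left out it was 2 (Ccl5 and Ccl12), with control replicate 2 left out 0, and with A20 deletion replicate 1 left out 8. In the fit without control replicate 2, in which edgeR passed 0 of all genes, 8 members were higher at an unadjusted p under 0.05, as were 6.31% of 13003 genes. DESeq2 passed 8 members higher and 1, Ccl6, lower, and limma-voom passed 3 higher (Ccl2, Ccl5 and Ccl12) and 0 lower. Between libraries of the same sex, as read from Xist and Y-linked counts, 8 members were higher both in A20 deletion replicate 1 than in control replicate 1 and in the mean of A20 deletion replicates 2 and 3 than in control replicate 2. These 8 are the members whose A20 deletion libraries all lay above both controls, so this outcome was fixed and is no added check. The direction of Ccl6 was fixed likewise. Ccl6 was lower in both comparisons, by -0.57 and -1.01 on the log2(CPM + 0.5) scale, and Ccl9 differed by 0.03 and -0.56.

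**Figure D1:**
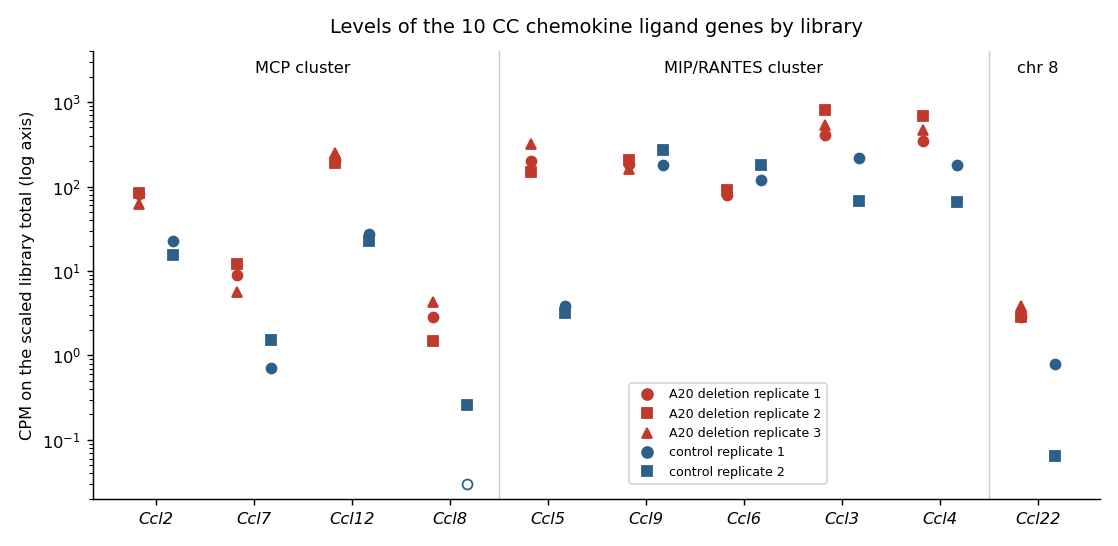
CPM on the scaled library total (log axis) of the 10 CC ligand genes, 1 point per library, with the A20 deletion libraries left of the controls and the genes in their order along each cluster. The open circle at the bottom is Ccl8 in control replicate 1, which had 0 counts and is drawn at the axis floor; the groups overlap only for Ccl9.

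Ccl12, also called MCP-5, is a mouse Ccr2 ligand and was the most abundant transcript of the MCP cluster. It stood at 207.4, 188.6 and 249.4 CPM in A20 deletion replicates 1 to 3 and at 27.08 and 22.37 CPM in control replicates 1 and 2. The 3 A20 deletion libraries lay close together and far above both controls. The difference was 8.71-fold (log2 fold change 3.12, SE 0.21, edgeR adjusted p = 0.00224), the eighth smallest p of all tested genes. With control replicate 2 left out it was 2.94 on the log2 scale (adjusted p = 0.0696), and 2.24 after each library's trend with gene length was removed (adjusted p = 0.0204).

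Ccl2, the archetypal monocyte attractant, stood at 81.11, 84.37 and 62.23 CPM in the libraries with A20 deletion and at 22.75 and 15.26 CPM in the controls. The lowest A20 deletion library was well above the higher control. It rose 4-fold (log2 2.00, SE 0.25, edgeR adjusted p = 0.0134), but did not pass once the length trend was removed (log2 1.49, adjusted p = 0.0662). Nor did it with control replicate 1 left out (log2 2.27, adjusted p = 0.0954) or control replicate 2 left out (log2 1.69, adjusted p = 0.192). The ratio of Ccl12 to Ccl2 counts within a library was 2.56, 2.24 and 4.01 in the A20 deletion libraries and 1.19 and 1.47 in the controls. The groups did not overlap in this ratio, with an exact two-sided permutation p of 0.2, where the smallest p that 3 against 2 libraries can give is 0.1.

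Ccl7, also known as MCP-3 and a further Ccr2 ligand, was scarcer. It had 104, 156 and 55 counts in the A20 deletion libraries and 10 and 24 in the controls, or 9.002, 12.2 and 5.59 CPM against 0.711 and 1.54 CPM. It rose 7.87-fold (log2 2.98, SE 0.51, edgeR adjusted p = 0.0343). The call was lost without either control, without A20 deletion replicate 2 or 3, with limma-voom and after removal of the length trend, with adjusted p between 0.0517 and 0.239 in these fits. The ratio of pooled counts, scaled for library size, was 8.05 with an exact 95% interval from 5.64 to 11.8, which covers counting error only.

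Ccl8, in the mouse a ligand of Ccr8, was rare. It had 33, 19 and 42 counts in the A20 deletion libraries and 0 and 4 in the controls, and did not pass (adjusted p = 0.099 by edgeR). The ratio of pooled counts, scaled likewise, was 20.4 with an interval from 7.72 to 76.5, again for counting error only. Ccl11 (eotaxin, an eosinophil attractant), whose gene lies between Ccl7 and Ccl12, and Ccl1, on the far side of Ccl8, had 0 counts in all 5 libraries, which allows up to 0.192 to 0.305 CPM.

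Ccl5 (RANTES), a ligand of Ccr1 that attracts T cells and monocytes, showed the largest fitted fold change of the 10 members. It stood at 202.6, 150 and 317.4 CPM in A20 deletion replicates 1 to 3 and at 3.84 and 3.21 CPM in the controls. The controls were nearly equal, and the lowest A20 deletion library was far above them. It rose by 5.99 on the log2 scale (SE 0.42, edgeR adjusted p = 0.00228), the ninth smallest p of all tested genes. It was 5.37 after removal of the length trend (adjusted p = 0.00535) and 5.81 with control replicate 2 left out (adjusted p = 0.0696).

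T and NK cells are another known source of Ccl5, and 11 of 15 T and NK cell markers were at 0 in both controls. The summed level of these markers was 5.69 to 10.7 CPM in the libraries with A20 deletion and 0.924 and 1.60 CPM in the controls, with Cd4, which macrophages can also express, the highest. Cd3d, Cd3e and Cd3g, which define T cells, had between 3 and 9 counts each in the A20 deletion libraries, where Ccl5 had 1911 to 3122, and 0 in the controls. The part of such cells in the Ccl5 level was not tested.

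Ccl3 and Ccl4 (MIP-1 alpha and MIP-1 beta), which attract monocytes and T cells, are divergently transcribed neighbours at the far end of the MIP/RANTES cluster. Ccl3 stood at 403.2, 802 and 538.1 CPM in the libraries with A20 deletion and at 216.7 and 68.2 CPM in the controls, and Ccl4 at 343.9, 689.5 and 468.4 CPM against 178.3 and 65.64 CPM. In both genes A20 deletion replicate 2 was highest, and control replicate 1 was far above control replicate 2. Neither passed: the log2 fold change was 2.03 (SE 0.52, adjusted p = 0.104) for Ccl3 and 2.04 (SE 0.48, adjusted p = 0.0831) for Ccl4 by edgeR. Against control replicate 2 alone they were 3.05 and 2.89, and against control replicate 1 alone 1.37 and 1.44. Both passed with DESeq2 (adjusted p = 0.000445 and 0.000127), and once the length trend was removed they were 1.21 and 1.14 on the log2 scale and did not pass. The ratio of Ccl3 to Ccl4 counts stayed between 1.15 and 1.17 in the A20 deletion libraries and was 1.215 and 1.04 in the controls (exact two-sided permutation p = 0.7).

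Ccl3 and Ccl4 are known to be induced in microglia while tissue is being dissociated. A list of 16 genes of that response holds, among others, Fos, Jun, Egr1 and Zfp36. It also holds the NF-kB inhibitor genes Nfkbia, Nfkbiz and Nfkbid, so it is not separate from NF-kB signalling. The list summed to 26000, 20450 and 20700 CPM in A20 deletion replicates 1 to 3. In control replicates 1 and 2 it summed to 29490 and 7307 CPM. Control replicate 2 thus had the lowest sum of the 5 libraries, and it also had the lowest Ccl3 and Ccl4, as it did for Ccl2, Ccl5 and Ccl12. Of the 16 genes 0 passed and 0 reached an unadjusted p under 0.05 by edgeR, and in none were the groups apart. Ccl12, Ccl5 and Ccl2 were higher in A20 deletion replicate 1 than in control replicate 1, the library with the highest sum, by 2.91, 5.55 and 1.81 on the log2(CPM + 0.5) scale, and Ccl3 and Ccl4 by 0.89 and 0.95. In each of these ligands all A20 deletion libraries lay above both controls. The direction was thus fixed and is no added check. The part of the dissociation response in these levels was not tested.

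**Figure D2:**
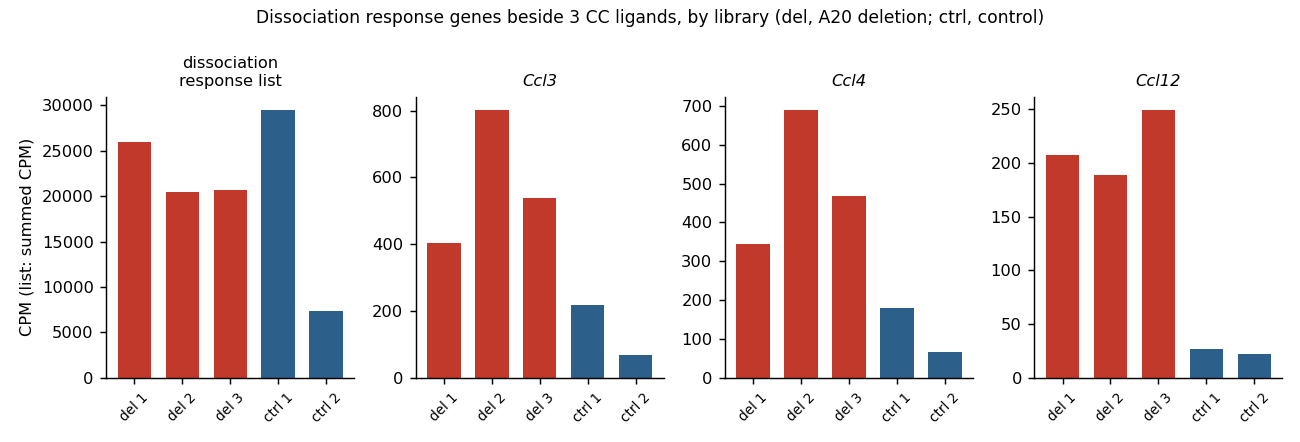
Summed CPM of 16 dissociation response genes (left) and CPM of Ccl3, Ccl4 and Ccl12, 1 bar per library, A20 deletion in red and control in blue. Control replicate 2 is lowest in the list (7307 CPM), in Ccl3 (68.2 CPM) and in Ccl4 (65.64 CPM), whereas both controls are near each other in Ccl12 (27.08 and 22.37 CPM).

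Ccl6 and Ccl9 are rodent chemokines that act on Ccr1 and lie between Ccl5 and Ccl3. Ccl6 stood at 79.2, 90.8 and 88.36 CPM in the libraries with A20 deletion and at 117.9 and 180.7 CPM in the controls. The groups were apart, but the log2 fold change of -0.79 (SE 0.21) did not pass (edgeR adjusted p = 0.114). It passed with a term for the sex read from Xist and Y-linked counts (log2 -0.83, adjusted p = 0.0235), after removal of the length trend (log2 -1.10, adjusted p = 0.0302) and with A20 deletion replicate 1 left out (log2 -0.76, adjusted p = 0.0205). Ccl9 stood at 184, 208 and 163.3 CPM in the libraries with A20 deletion and at 180.1 and 271.2 CPM in the controls, so the groups overlapped (log2 -0.28, SE 0.22, adjusted p = 0.461).

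Ccl6 was scarcer relative to Ccl9 in the A20 deletion libraries, with 0.430, 0.437 and 0.541 Ccl6 counts per Ccl9 count, than in the controls, with 0.655 and 0.666. The groups did not overlap in this ratio, and the exact two-sided permutation p of 0.1 is the smallest that this design can give. No 50-base stretch of the Ccl6 transcripts occurs in a transcript of another gene, and for Ccl9 59 of 2996 such stretches do. The other 8 members share no such stretch with another gene.

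Ccl22, made mainly by dendritic cells and macrophages and a ligand of Ccr4, had 33, 36 and 38 counts in the A20 deletion libraries and 11 and 1 in the controls. Levels were 2.86, 2.83 and 3.86 CPM against 0.782 and 0.0641 CPM, and the difference did not pass (edgeR adjusted p = 0.15). The scaled ratio of pooled counts was 7.75 with an exact 95% interval from 4.26 to 15.5 for counting error. Ccl17, its neighbour and the other Ccr4 ligand, had 0, 15 and 0 counts in A20 deletion replicates 1 to 3 and 1 and 0 in the controls, and was too rare to test. Of 6 tested dendritic cell markers 0 passed and 3 had an unadjusted p under 0.05 by edgeR, where 21% of all tested genes had. Of these 3, Zbtb46 and Ccr7 were higher and Itgae was lower. Of the 6, 4 lay above both controls in every A20 deletion library (21.7% of all tested genes did). Below both controls lay 1 (18.5% of all tested genes did). Cd209a was at 0 in all 5 libraries.

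The MCP cluster as a whole was higher in every A20 deletion library, whereas the MIP/RANTES cluster held both members that were higher and members that were lower or overlapping. All 4 MCP genes lay above both controls in all A20 deletion libraries, as did 21.7% of all tested genes. Their log2 fold changes ran from 2.00 to 4.34, and 3 passed, where 2.08% of all tested genes passed in the higher direction. Ccl7 and Ccl8 passed the filter on low counts with 1 and 0 control libraries over its level. The value of 4.34 is that of Ccl8, which had 0 and 4 counts in the controls. In the MIP/RANTES cluster the log2 fold changes ran from -0.79 for Ccl6 to 5.99 for Ccl5, and 1 of 5 passed. Summed over the cluster, the MCP genes reached 300.4, 286.7 and 321.5 CPM in the libraries with A20 deletion against 50.54 and 39.42 CPM in the controls. The MIP/RANTES genes summed to 1213, 1940 and 1576 CPM against 696.9 and 588.9 CPM. Both sums were apart, each with an exact two-sided permutation p of 0.1.

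The surroundings of the clusters gave few calls. Of 10 other genes in the MCP cluster or within 500 kb of it, 0 had enough counts to be tested, among them Ccl1 and Ccl11. Around the MIP/RANTES cluster 16 of 45 genes were tested, of which 1 rose and 1 fell, against 2.59% called of all tested genes. The gene that rose is Slfn2, of the Schlafen family of growth regulators induced by interferon, with 178.7, 169.2 and 174.5 CPM in the libraries with A20 deletion and 47.34 and 53.97 CPM in the controls (log2 1.78, SE 0.16, edgeR adjusted p = 0.00549). The gene that fell is the matrix metalloproteinase Mmp28, between the Schlafen genes and Ccl5, with 36, 47 and 12 counts in the A20 deletion libraries and 227 and 323 in the controls (log2 -2.76, SE 0.41, edgeR adjusted p = 0.0218). Slfn1, of the same family as Slfn2, had 107, 39 and 27 counts in the A20 deletion libraries and 2 and 7 in the controls, and did not pass (edgeR adjusted p = 0.0663). Neither Slfn2 nor Mmp28 passed without control replicate 1 or without control replicate 2. Around Ccl22 20 of 32 genes were tested and 0 passed by edgeR, with 7 at an unadjusted p under 0.05, where 21% of all tested genes were. Nlrc5, a regulator of MHC class I genes, missed the threshold there (edgeR adjusted p = 0.0529) and passed in 12 of 19 alternatives, 11 of them edgeR fits. DESeq2 passed Nlrc5 and 9330175E14Rik.

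**Figure D3:**
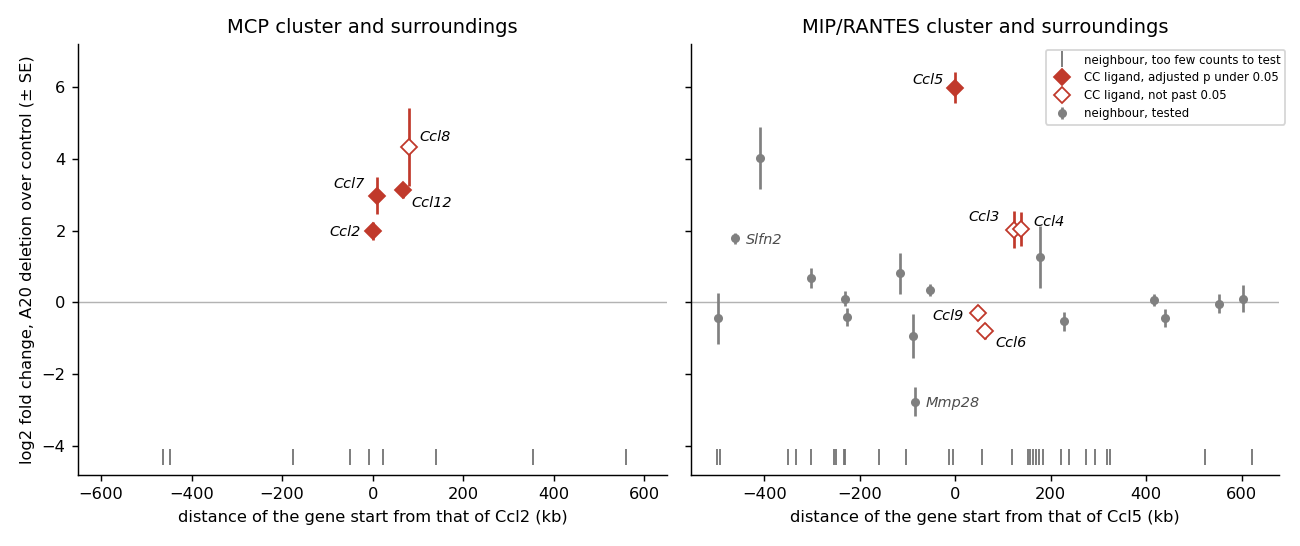
Log2 fold change, A20 deletion over control, with its SE (edgeR), against the distance of each gene's lower annotated coordinate from that of Ccl2 (left) or Ccl5 (right) in kb; diamonds are CC ligands, filled where they passed, grey points are tested neighbours and ticks are neighbours with too few counts. The MCP genes sit together between 2.00 and 4.34 with no tested neighbour, and in the MIP/RANTES cluster Ccl9 and Ccl6 sit below 0 between Ccl5 and the pair of Ccl3 and Ccl4; of the genes too rare to test on the left, 1 lies outside the drawn range.

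Levels of different genes are compared here as CPM per kb of annotated exon. In the A20 deletion libraries the order of the group means was Ccl3 (758.6 ± 264.8) and Ccl4 (758.5 ± 265.2), then Ccl12 (400.6 ± 58), Ccl5 (232.7 ± 89.2), Ccl2 (66.7 ± 10.5), Ccl9 (60.8 ± 7.34), Ccl6 (48.0 ± 3.41), Ccl7 (11.2 ± 4.15), Ccl8 (5.62 ± 2.72) and Ccl22 (1.37 ± 0.254; SD, n = 3). Ccl3 and Ccl4 could not be separated in this order, nor could Ccl7 and Ccl8, since each pair changed places between libraries. The ranges of Ccl2 and Ccl9 over libraries overlapped, but within each A20 deletion library Ccl2 was higher (71.27, 74.14 and 54.68 against 60.44, 68.3 and 53.63). In the controls Ccl3 (186 ± 137.1) and Ccl4 (184.8 ± 120.7) were followed by Ccl6 (83.2 ± 24.7), Ccl9 (74.1 ± 21.2), Ccl12 (46.0 ± 6.20), Ccl2 (16.7 ± 4.65), Ccl5 (3.67 ± 0.467), Ccl7 (1.40 ± 0.731), Ccl8 (0.251 ± 0.355) and Ccl22 (0.182 ± 0.218; SD, n = 2). Each of the first 4 of these overlapped its neighbour among them, as did Ccl8 and Ccl22, although Ccl6 was above Ccl9 within both controls. In control replicate 2 Ccl6 was the highest, with 100.7 CPM per kb, against 99.45 for Ccl4, 89.06 for Ccl9 and 89.03 for Ccl3. The place of Ccl9 depends on its annotated exons of 3045 bases, the longest of the 10, and would move with another choice of isoform.

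Ccl6 and Ccl9 together made up 5.69%, 4.23% and 4.32% of the summed CPM per kb of the 10 genes in the A20 deletion libraries, and 16.6% and 43.2% in the controls (exact two-sided permutation p = 0.1, the smallest possible). A share moves with the other members too. Summed CPM per kb of Ccl6 and Ccl9 was 104.6, 118.9 and 102.9 in the A20 deletion libraries and 124.8 and 189.8 in the controls, and that of the other 8 members 1734, 2693 and 2279 against 628.7 and 249.3. Ccl5 took 11.5%, 5.56% and 13.9% in the A20 deletion libraries and 0.530% and 0.760% in the controls. The MCP genes took 25.8%, 15.8% and 22.4%, against 9.46% and 13.1%. The groups were apart in both, with p = 0.2 in the same exact test. Ccl3 and Ccl4 together took 57%, 74.4% and 59.3% in the A20 deletion libraries and 73.4% and 42.9% in the controls, and the groups overlapped.

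**Figure D4:**
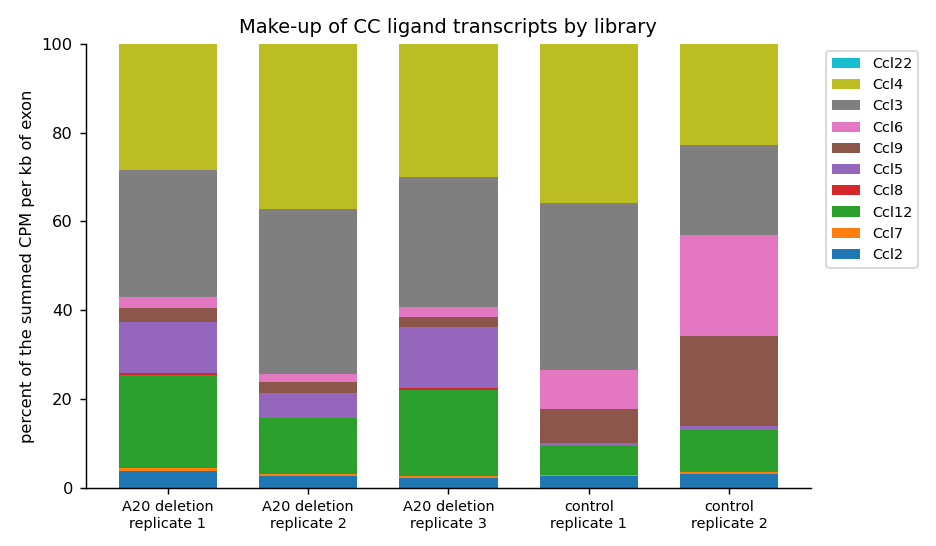
Share of each gene in the summed CPM per kb of exon of the 10 CC ligands, in percent, 1 stacked bar per library, A20 deletion left of control. Ccl6 and Ccl9 together take 4.23% to 5.69% of the sum in the A20 deletion libraries, against 16.6% and 43.2% in the controls, and Ccl5 takes 5.56% to 13.9%, against 0.530% and 0.760%.

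No receptor of these ligands passed in either direction. Of 15 CC and atypical chemokine receptor genes 8 had enough counts to be tested and 0 passed by edgeR, with 4 at an unadjusted p under 0.05 (21% of all tested genes), whereas DESeq2 passed 1 (Ccr7) and limma-voom 0. Ccr1, bound by Ccl3, Ccl5, Ccl6 and Ccl9, stood at 27.0, 29.7 and 24.6 CPM in the libraries with A20 deletion and at 30.9 and 36.0 CPM in the controls (adjusted p = 0.357). It lay lower in every A20 deletion library.

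Ccr2, the receptor of Ccl2, Ccl7 and Ccl12, is a monocyte marker and stood at 8.14, 5.18 and 5.49 CPM in the libraries with A20 deletion and at 11.5 and 8.20 CPM in the controls (adjusted p = 0.271). The groups were apart by a narrow margin, with the controls higher. The 12 monocyte markers of the list together summed to 116.3, 65.06 and 87.95 CPM against 28.57 and 31.09 CPM. Of 7 tested, 2 rose, Plac8 and Ms4a4c, where 2.08% of all tested genes rose. Most of the sum in the A20 deletion libraries came from these 2, with 30.64, 16.64 and 27.05 CPM for Plac8 and 53.5, 31.08 and 37.11 CPM for Ms4a4c. Ly6c2 (12, 7 and 12 counts against 1 and 0) was also higher in every A20 deletion library. So was S100a4 (35, 21 and 56 counts against 12 and 14), and neither passed. With Plac8 and Ms4a4c, 4 of the 7 were higher at an unadjusted p under 0.05 by edgeR (12.8% of all tested genes). In F13a1 and Chil3 the groups overlapped, and Ccr2 was lower in every A20 deletion library. None of the 12 was at 0 in both controls. Border macrophages of the brain's linings also make MCP chemokines. Their 10 markers summed to 227.4, 123.7 and 164.6 CPM in the libraries with A20 deletion and to 74.56 and 148.8 CPM in the controls. Of 9 tested 0 passed by edgeR, with 3 at an unadjusted p under 0.05, all higher (12.8% of all tested genes). In 4 of the 9 all A20 deletion libraries lay above both controls (21.7% of all tested genes). In 0 did all lie below both controls (18.5% of all tested genes). The part of either cell type in the chemokine levels was not tested.

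Ccr3, an eosinophil receptor, had 3, 8 and 13 counts in the A20 deletion libraries and 29 and 30 in the controls (adjusted p = 0.304). Ccr7, which guides dendritic cells and T cells to lymph nodes, had 8, 26 and 30 counts against 2 and 0 (adjusted p = 0.115). Ccr6 had 14, 10 and 10 counts against 11 and 19, and the groups overlapped. The remaining 4 CC receptors, Ccr4, Ccr8, Ccr9 and Ccr10, had at most 6 counts in any library.

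Among the atypical receptors, which bind chemokines without classical G protein signalling, Ccrl2 stood at 446.7, 360.1 and 332.4 CPM in the libraries with A20 deletion and at 165.8 and 39.42 CPM in the controls (log2 1.89, SE 0.55, edgeR adjusted p = 0.136). Like Ccl3 and Ccl4 it was lowest in control replicate 2, and it passed with the sex term (adjusted p = 0.0145) and with the replicate number as a block (adjusted p = 0.0422). Ackr3 stood at 13.8, 10.4 and 13.4 CPM against 6.18 and 7.37 CPM (adjusted p = 0.121). Ackr1, an endothelial and red cell receptor that binds many chemokines, had 201 counts in A20 deletion replicate 1, 2 in each of the other A20 deletion libraries and 0 in the controls. That library also had the highest summed level of 6 endothelial markers, 120.6 CPM, against 60.7 to 71.79 CPM in the other 4 libraries. Pecam1 lay lower in every A20 deletion library (18.5% of all tested genes did). The other 5 (Cldn5, Flt1, Cdh5, Ly6c1 and Kdr) lay higher in every A20 deletion library than in both controls (21.7% of all tested genes did). Control counts were low for Cldn5 (2 and 30) and Ly6c1 (0 and 6). None of the 6 markers passed by edgeR, and 5 had an unadjusted p under 0.05 (21% of all tested genes). Their part in the Ackr1 counts was not tested.

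The rest of the CC ligand family was scarcely detected. Of 13 further CC ligand symbols only Ccl24 (eotaxin-2) could be tested, and it stood at 1.13, 5.65 and 4.78 CPM in the libraries with A20 deletion and at 4.76 and 4.17 CPM in the controls, with the groups overlapping (edgeR adjusted p = 0.86). Ccl1, Ccl11, Ccl19, Ccl20, Ccl21a, Ccl21b, Ccl21c and Ccl26 had 0 counts in every library, and Ccl17, Ccl25, Ccl27a and Ccl28 had at most 15 in any library. Ccl19, Ccl21 and Ccl27 genes have near-identical copies in the mouse, so their counts are uncertain.

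**Figure D5:**
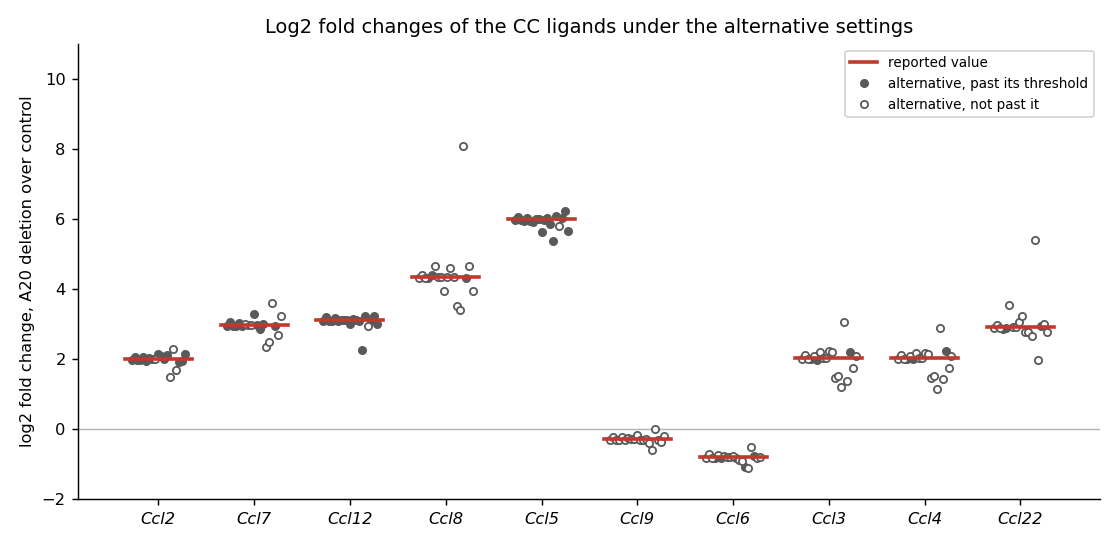
Log2 fold change, A20 deletion over control, of each CC ligand as reported (red line) and under each alternative setting (points, filled where past that setting's threshold). Ccl5 and Ccl12 pass under 18 of 19 alternatives each and Ccl9 under 0; the outlying points of Ccl8 and Ccl22, at 8.10 and 5.39, come from fits in which the remaining control had 0 counts or 1 count, where the fitted value has no firm base.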

How the data were processed

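The authors deposited 1 table of whole-number read counts per Ensembl gene, without scaling. The tools STAR 2.4.0j, DESeq2 1.22.1 and featureCounts and the build GRCm38 come per the submitters' processing notes. Annotation release, strand setting and the handling of multi-mapping reads: not given in the sources used here. Per the labels' protocols, cells were released with papain, and RNA of integrity number 7 or above went into NEBNext Ultra II libraries. Of 41388 genes 40340 matched a GENCODE M21 symbol.

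Genes were kept by filterByExpr (minimum count 10, total 15), scaled with TMM factors and tested with edgeR 4.0.16 (glmQLFit, glmQLFTest, two-sided, no covariate) in R 4.3.3. The SE is the log2 fold change over the square root of F, without its sign. CPM is on library totals times the TMM factor, and ± gives the SD. All 10 pairs of libraries differed beyond sampling noise (chi-square per degree of freedom 15.2 to 140). The code was tested on simulated data. Alternatives used DESeq2 1.42.0, limma 3.58.1, other scalings, filters and terms, and left out libraries. Every member is named, with each tested receptor (1 is not reported here) and further ligand and the called neighbours with the 5 smallest p per cluster. Genes singled out beyond that (single markers, Ackr1, Ccl17, Slfn1, Nlrc5 and 9330175E14Rik) were chosen after their values were seen. The members and lists were chosen with earlier results of these data known. Intervals and limits from a count of 0 cover counting error only.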

Additional observations from a re-analysis of the deposited data

How the results depend on the processing

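The count of members that rose, 4 in the reported fit, was 8 with no filter, with DESeq2 and without A20 deletion replicate 1, 2 at an adjusted p under 0.01 and after removal of the length trend (an alternative chosen after seeing the data), and ranged from 0 to 8 as each library was left out. Members lower, 0 as reported, numbered 1 with no filter, with DESeq2, with the sex term and with the length trend removed, and 0 to 1 as each library was left out. No member changed direction in any of the 19 alternatives. Over all genes 317 passed; it was 1701 with no filter, 1011 with DESeq2, 211 with limma-voom, 58 at an adjusted p under 0.01, 824 with the sex term, and 0 to 3923 as each library was left out. Of these, 1048, 669, 166, 56 and 563 were higher (255 as reported, 0 to 1902 with a library left out) and 653, 342, 45, 2 and 261 lower (62 as reported, 0 to 2021 with a library left out). The numbers shared by the groups do not pair the libraries by any label: deviations from the group means correlated at 0.27 and 0.18 for same-numbered libraries, and the replicate block, in which A20 deletion replicate 3 has a term of its own, gave 260 genes, 32 of them lower, and the same 4 members higher. Receptors that passed, 0 as reported, numbered 3 with no filter and 1 each with DESeq2, the replicate block, the sex term and with A20 deletion replicates 2 and 3 both left out, and 0 to 3 as each library was left out. Neighbours that passed, 2 as reported, numbered 7 with no filter, 5 with DESeq2 and with the sex term, 4 with the mitochondrial share as a term and with A20 deletion replicates 2 and 3 both left out, 3 in 5 further fits, 1 at an adjusted p under 0.01, and 0 to 15 as each library was left out. Ccr6, at 0.002 on the log2 scale, turned to -0.024 (DESeq2 size factors), -0.036 (library size alone), -0.033 (no filter), -0.039 (DESeq2), -0.006 (replicate block), 0 (sex term), -0.191 (length trend removed) and between -0.32 and 0.305 with a library left out; Ccl24, at -0.211, turned to 0.202 without A20 deletion replicate 1 and lay between -0.586 and 0.202 as each library was left out. Ccl8 and Ccl22 gave no value with a minimum of 5 CPM in 2 libraries. The cause of these shifts was not tested. With 2 controls, fits without one of them rest on the spread among the A20 deletion libraries, and the members with under 50 counts in a library (Ccl7, Ccl8 and Ccl22) are limited by depth.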
